A study of Homo sapiens with 64 samples.

Results

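The anti-apoptotic BCL2 family was followed through 5 genes, BCL2, MCL1, BCL2L1, BCL2A1 and BCL2L2, in human lymphoma cell lines exposed to OTX015, an inhibitor of BET bromodomain proteins. The members were taken by gene symbol, which gave 10 probes among the 47231 on the array: 4 for BCL2, 2 for MCL1, 2 for BCL2L1, and 1 each for BCL2A1 and BCL2L2. They are 5 of 20046 genes with a probe. All 10 probes were above background on at least 3 arrays of the time course, as were 26029 probes of 13392 genes in all. Labelled material made from total RNA was hybridised to 64 single-channel arrays, 1 sample each. In the time course, SUDHL2 and SUDHL6 cells were left untreated (NT), or received the vehicle DMSO or OTX015 for 1, 2 or 12 h, which makes 14 groups of 3 arrays. Another 22 arrays each held an untreated lymphoma line, and 2 of those lines, SU-DHL-2 and SU-DHL-6, carry the names of the treated ones. Every sample is an established line grown in vitro. The labels state no dose for OTX015 and no hour for the untreated arrays.

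These proteins hold mitochondrial cell death in check by binding the BH3 segment of pro-apoptotic relatives and keeping the pore-forming members BAX and BAK1 inactive. BCL2 is the founding member of the family, first met at a chromosomal translocation of follicular lymphoma. MCL1 is short-lived and needed for B cell survival, BCL2L1 encodes BCL-XL, BCL2A1 encodes BFL-1, a target of NF-kB signalling in B cells, and BCL2L2 encodes BCL-w.

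With OTX015, BCL2A1 fell in SUDHL2 cells to 0.23 of its vehicle level at 12 h, and the 2 probes of the BCL2 alpha transcript fell by 0.55 and 0.60 on the log2 scale. In SUDHL6 cells BCL2L1 fell against DMSO at 2 h and at 12 h on its brighter probe, and BCL2L2 rose against DMSO at 12 h. The other BCL2L1 probe, near background, did not pass. The DMSO mean itself stood above untreated for BCL2L1 at 2 h and below it for BCL2L2 at 12 h. The differences between the lines in the responses of BCL2A1, BCL2L1 and BCL2L2 passed a direct test at 12 h. Those of the BCL2 alpha probes did not. In SUDHL6, BCL2A1 and the alpha probes lay near background, which limits what falls could be measured there. MCL1 passed the test at no hour in either line.

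The sequences upstream of the genes that fell most, 1 in each line, are shown because they lie directly upstream of the annotated starts of these genes. They are the 250 bases before the annotated start in RefSeq, build GRCh38.p14, written 5′ to 3′ on the gene's own strand. BCL2A1 lies on the minus strand at chr15:79971197-79971446. BCL2L1 has 2 annotated starts in that table, both on the minus strand, at chr20:31723964-31724213 and chr20:31722869-31723118. Capitals mark matches to the STAT consensus TTCNNNGAA.
BCL2A1: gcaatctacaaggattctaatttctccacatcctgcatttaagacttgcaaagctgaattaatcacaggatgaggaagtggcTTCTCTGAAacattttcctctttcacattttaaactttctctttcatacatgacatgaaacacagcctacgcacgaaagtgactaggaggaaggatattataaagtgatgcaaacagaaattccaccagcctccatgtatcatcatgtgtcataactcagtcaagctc
BCL2L1, first start: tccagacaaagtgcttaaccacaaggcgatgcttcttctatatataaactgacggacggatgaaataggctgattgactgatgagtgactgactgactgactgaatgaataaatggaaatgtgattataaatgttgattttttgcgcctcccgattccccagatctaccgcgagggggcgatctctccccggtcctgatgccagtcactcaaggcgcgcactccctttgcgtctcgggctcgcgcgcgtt
BCL2L1, second start: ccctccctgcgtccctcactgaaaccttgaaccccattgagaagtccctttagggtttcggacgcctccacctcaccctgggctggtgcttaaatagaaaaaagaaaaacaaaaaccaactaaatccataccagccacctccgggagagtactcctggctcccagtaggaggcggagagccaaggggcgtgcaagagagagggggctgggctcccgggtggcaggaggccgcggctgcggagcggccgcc
The NF-kB consensus, the STAT consensus and the E-box CACGTG were searched on both strands. Of the 5 members, 3 were matched by symbol, BCL2A1, BCL2L1 and BCL2. The BCL2A1 window held 1 match, to the STAT consensus, 168 bases before the start, and the windows of BCL2L1 and BCL2 held none of the 3 motifs. Of all 35116 windows of this length, 5.21% held the NF-kB consensus, 6.57% the STAT consensus and 6.34% the E-box. The BCL2A1 window had a GC content of 38.8%, against 50% and 60.4% for the BCL2L1 windows and 70% for BCL2.

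The levels below are log2 values of normalised signal, and differences are log2 differences with the standard error (SE) of the fit. The deposited signals had a median of 88.55 to 115.5 per array in the time course and 88.27 to 118 in the panel, and replicate arrays correlated at 0.982 to 0.994. The B cell markers CD79A, CD79B, MS4A1, CD22 and CD74 were above background on all 42 time-course arrays, whereas the PAX5 probe was so on none. The arrays of a group are numbered as experiments 1 to 3 without a word on whether each was a culture of its own. The p-values then cover the spread among those arrays, which may be technical. In bulk RNA, fewer cells of a kind and less RNA per cell cannot be told apart. The panel array labelled Karpas-422 stood apart, because its deposited processed values correlated better with the signals of SU-DHL-4 (0.945) than with its own (0.882); the signals were used here.

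Of the 10 probes, 3 fell and 0 rose with OTX015 in SUDHL2 at 12 h, when 25.6% of all probes tested passed the threshold. In SUDHL6, 2 fell and 0 rose at 2 h (4 of 10 passed with the replicate block), against 3.91% of all probes, and 2 fell and 1 rose at 12 h, against 19.3%. With limma, 0 of the 10 passed in SUDHL2 at 1 h (0.134% of all probes; 0 of 10 at an unadjusted p under 0.05), 0 in SUDHL2 at 2 h (2.02%; 0 unadjusted) and 0 in SUDHL6 at 1 h (0.557%; 1 unadjusted). At 12 h the share of members called was therefore near that of all probes in both lines. The median difference over the 10 probes was −0.07 in SUDHL2 and −0.17 in SUDHL6 at 12 h, beside medians of 0.00 and 0.01 over all probes.

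**Figure D1:**
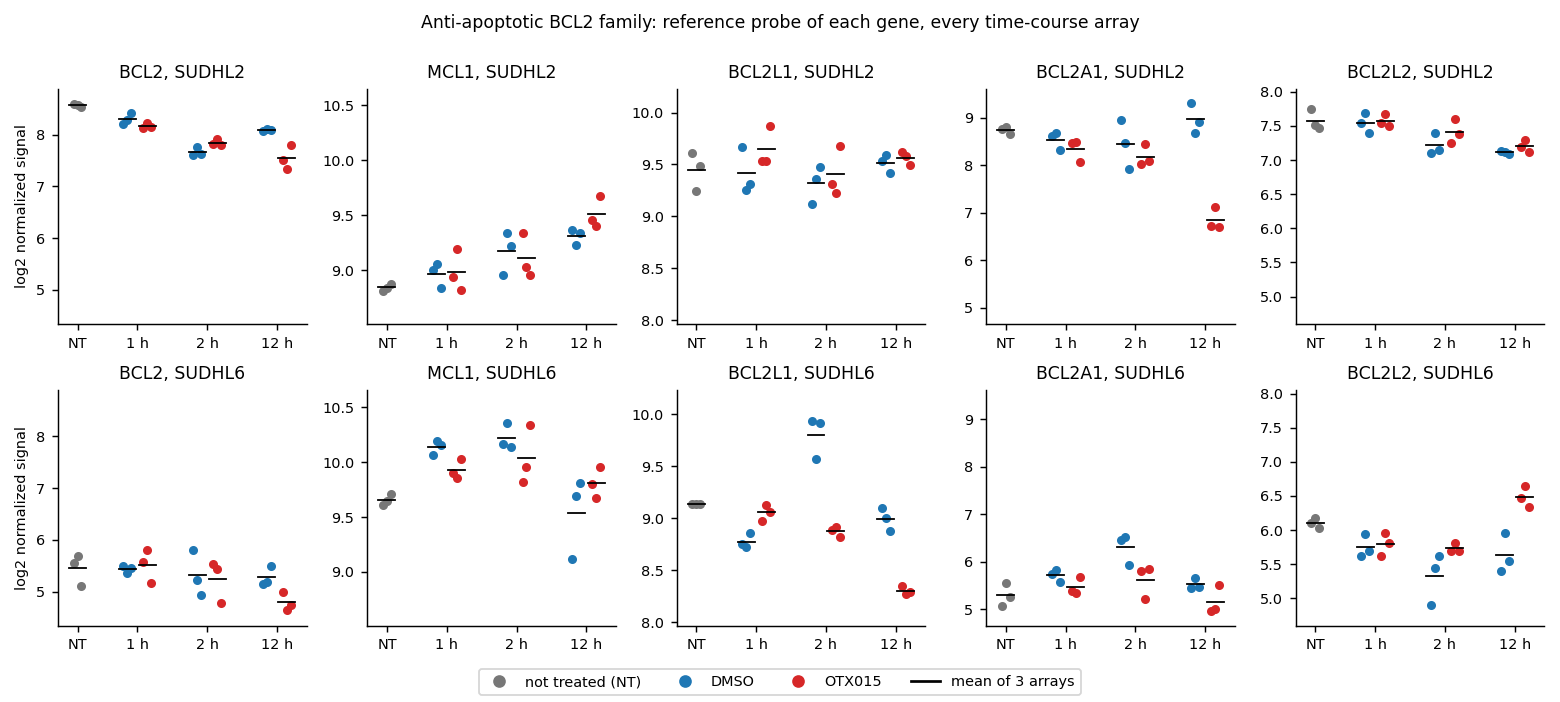
Log2 normalised signal (vertical axis) of the brightest probe of each of the 5 genes on every time-course array, by hour, in SUDHL2 (top) and SUDHL6 (bottom); dots are arrays and bars are means of 3. BCL2A1 drops in SUDHL2 at 12 h with OTX015, and BCL2L1 lies lower with OTX015 than with DMSO in SUDHL6 at 2 and 12 h. Among the SUDHL6 groups alone, BCL2L2 is highest with OTX015 at 12 h.

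BCL2A1 gave the largest response of the family. In SUDHL2, the 3 untreated arrays read 8.76, 8.80 and 8.65, the DMSO arrays at 12 h 9.31, 8.69 and 8.92, and the OTX015 arrays at 12 h 6.73, 7.13 and 6.69. All OTX015 arrays lay below every untreated and every DMSO array of the line. The fall was −2.12 ± 0.20 (SE, n = 3 arrays per group; limma adjusted p = 2.9e-11), or 0.23 of the DMSO signal. It was −2.07 on the 2 + 2 arrays of one slide and −2.23 on the pair of another, and passed the test under all 20 alternatives, between −2.27 and −1.53.

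The loss of BCL2A1 was late. At 1 h the OTX015 arrays of SUDHL2 read 8.46, 8.48 and 8.07 and the DMSO arrays 8.61, 8.67 and 8.32, a difference of −0.19 that did not pass (adjusted p = 0.999 by limma, 95% interval −0.60 to 0.21). At 2 h the difference was −0.27 (adjusted p = 0.79 by limma, 95% interval −0.67 to 0.14), with overlapping arrays. The response at 12 h differed from that at 1 h by −1.93 ± 0.28 (limma adjusted p = 2.18e-06).

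In SUDHL6, BCL2A1 lay near background. The untreated arrays read 5.08, 5.56 and 5.25, of which 1 was above background. At 2 h the DMSO arrays read 6.47, 6.52 and 5.93 and the OTX015 arrays 5.81, 5.23 and 5.84, which did not overlap. The difference of −0.68 ± 0.20 passed (limma adjusted p = 0.0421), and the DMSO arrays had themselves risen above the untreated ones by 1.01 ± 0.20 (limma adjusted p = 0.000482). The OTX015 mean of 5.63 stood between 5.30 untreated and 6.31 in DMSO. That call ended under 10 of 21 alternatives, among them no background correction, where the difference was −0.33 (limma adjusted p = 0.219), and the left-out arrays OTX015 replicate 2 (−0.48), DMSO replicate 1 (−0.60) and DMSO replicate 2 (−0.58). At 2 h the within-slide differences were −0.95 and −0.38. At 12 h the difference of −0.37 did not pass (limma adjusted p = 0.22, 95% interval −0.78 to 0.03), and the probe was above background on 2 of 3 DMSO arrays and 1 of 3 OTX015 arrays.

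BCL2L1, the gene of BCL-XL, changed in SUDHL6. At 2 h its brighter probe, ILMN_1654118, read 9.93, 9.57 and 9.91 in DMSO and 8.88, 8.92 and 8.82 in OTX015. At 12 h it read 9.09, 9.0 and 8.87 in DMSO and 8.35, 8.27 and 8.29 in OTX015. At both hours every OTX015 array lay below every DMSO array. The differences were −0.93 ± 0.13 at 2 h (0.524 of DMSO, limma adjusted p = 1.53e-06) and −0.69 ± 0.13 at 12 h (0.621 of DMSO, limma adjusted p = 5.09e-05).

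The vehicle arm of BCL2L1 differed from the untreated arrays as well. Untreated SUDHL6 arrays read 9.13 on all 3, and DMSO at 2 h stood above them by 0.67 ± 0.13 (limma adjusted p = 0.000198). The OTX015 mean at 2 h, 8.87, was below the untreated mean, and the 12 h mean of 8.30 lay below both the untreated mean of 9.13 and the DMSO mean of 8.99. At 1 h DMSO read 8.75, 8.72 and 8.86 and OTX015 8.97, 9.13 and 9.06, higher on every array, but the difference of 0.28 ± 0.13 did not pass (limma adjusted p = 0.644). The response of SUDHL6 at 12 h differed from that at 1 h by −0.97 ± 0.18 (limma adjusted p = 0.000146). On the 2 slides that held both arms, the difference was −1.03 and −0.92 at 2 h and −0.79 and −0.65 at 12 h, and all 21 alternatives kept each call. Averaged with the second probe, the fall at 2 h was −0.62 (limma adjusted p = 0.00168).

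The second BCL2L1 probe, ILMN_1742410, was above background on only 20 of 42 arrays. In SUDHL6 its OTX015 arrays at 12 h read 4.90, 4.82 and 5.03 against 5.36, 5.29 and 5.29 in DMSO, with no array above background in either group. Its difference did not pass at 2 h (−0.30, limma adjusted p = 0.613) or at 12 h (−0.39, limma adjusted p = 0.23).

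In SUDHL2, BCL2L1 did not pass at any hour. Its DMSO arrays at 12 h read 9.53, 9.59 and 9.42 and its OTX015 arrays 9.62, 9.58 and 9.50. The difference was 0.05 ± 0.13 with a 95% interval of −0.20 to 0.30, and the arrays overlapped. The largest of the 3 differences was 0.23 at 1 h (limma adjusted p = 0.999, 95% interval −0.02 to 0.49).

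BCL2 has 4 probes, and the array annotation assigns 2 to each of its transcripts. ILMN_2246956 and ILMN_1801119 are annotated to the alpha form, which encodes the full protein with its membrane anchor, and ILMN_2363250 and ILMN_1701120 to the beta form, whose protein lacks that anchor. In SUDHL2 at 12 h, ILMN_2246956 read 8.08, 8.12 and 8.10 in DMSO and 7.52, 7.33 and 7.80 in OTX015. ILMN_1801119 read 7.90, 7.89 and 7.73 in DMSO and 7.14, 7.20 and 7.37 in OTX015. For both probes the OTX015 arrays were all below the DMSO arrays. The falls were −0.55 ± 0.18 (0.685 of DMSO, limma adjusted p = 0.0164) and −0.60 ± 0.16 (0.659 of DMSO, limma adjusted p = 0.00439). On the 2 slides that held both arms they were −0.67 and −0.30 for the first probe and −0.73 and −0.36 for the second.

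The alpha probes also differed between DMSO and untreated arrays. Untreated SUDHL2 arrays read 8.59, 8.58 and 8.53 on ILMN_2246956, and DMSO at 2 h read 7.62, 7.77 and 7.62, a fall of −0.90 ± 0.18 (limma adjusted p = 0.000361). ILMN_1801119 fell at the same hour by 0.73 ± 0.16 (limma adjusted p = 0.00186). On the 1 slide that held DMSO and untreated arrays of the line, these falls were −0.86 and −0.58. OTX015 against DMSO at 2 h did not pass on either, at 0.18 (limma adjusted p = 0.884) and 0.08 (limma adjusted p = 0.967), although on ILMN_2246956 every OTX015 array lay above every DMSO array. Of the 2 calls at 12 h, that of ILMN_1801119 held in all 18 alternatives, and that of ILMN_2246956 ended without OTX015 replicate 1 (−0.53), without OTX015 replicate 2 (−0.44) and when all detected BCL2 probes were averaged (−0.24). The 12 h response exceeded the 1 h response on ILMN_1801119 (−0.68 ± 0.23, limma adjusted p = 0.0374), a call that ended in 8 of 24 alternatives; on ILMN_2246956 it did not pass (−0.41, limma adjusted p = 0.299).

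In SUDHL6 the alpha probes read at the edge of detection. ILMN_2246956 read 5.14, 5.19 and 5.49 in DMSO at 12 h, with 1 array above background, and 4.99, 4.64 and 4.74 in OTX015, with none. It passed the test (limma adjusted p = 0.0457), but no fold is given because OTX015 levels were not well above background, and 14 of 21 alternatives ended the call. ILMN_1801119 did not pass (−0.08, limma adjusted p = 0.816).

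The beta probe ILMN_2363250 was above background on all 21 SUDHL6 arrays and on 13 of 21 SUDHL2 arrays. In SUDHL6 it read 6.35, 6.23 and 6.09 untreated, 7.22, 7.16 and 7.0 with DMSO at 2 h, and 6.61, 6.55 and 6.70 with OTX015 at 2 h. The OTX015 arrays lay above the untreated and below the DMSO arrays without overlap. In DMSO the probe stood above untreated by 0.63 ± 0.16 at 1 h (limma adjusted p = 0.0234, a call that ended in 6 of 19 alternatives). At 2 h it did so by 0.91 ± 0.16 (limma adjusted p = 5.77e-05). OTX015 against DMSO at 2 h was −0.51 ± 0.16 and narrowly did not pass (limma adjusted p = 0.0535). With the replicate block, which the pairing check allows at this hour, it did (limma adjusted p = 0.0415). The other beta probe, ILMN_1701120, was above background on 4 of 42 arrays and passed in no contrast.

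**Figure D2:**
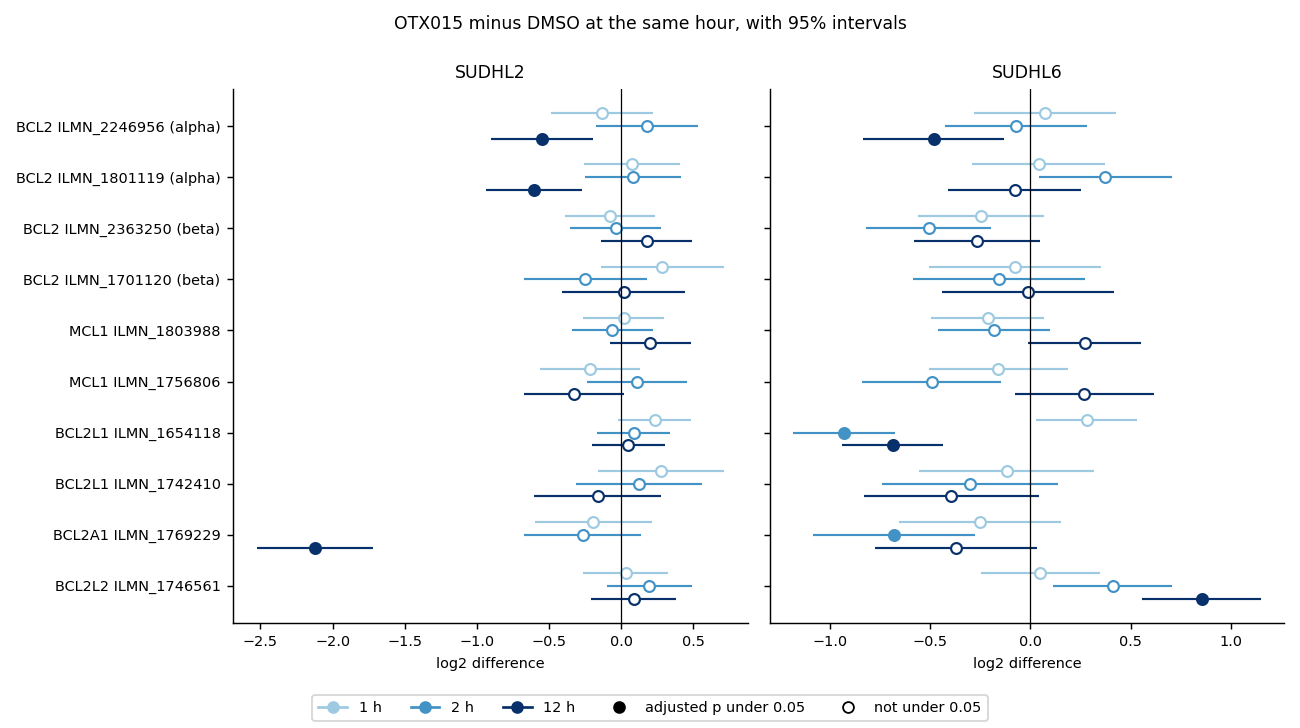
OTX015 minus DMSO at the same hour as a log2 difference (horizontal axis) for the 10 probes in each line, with 95% intervals of the limma fit; filled points passed an adjusted p of 0.05. The largest fall is BCL2A1 in SUDHL2 at 12 h at −2.12, and the only rise that passed is BCL2L2 in SUDHL6 at 12 h at 0.85.

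MCL1, the short-lived family member, did not pass in any of the 6 comparisons of OTX015 with DMSO on either probe. On ILMN_1803988, SUDHL2 at 12 h read 9.37, 9.23 and 9.34 in DMSO and 9.46, 9.41 and 9.68 in OTX015. The OTX015 arrays were all above the DMSO arrays, and the difference of 0.20 did not pass (limma adjusted p = 0.329, 95% interval −0.08 to 0.48). SUDHL6 at 12 h read 9.12, 9.69 and 9.81 in DMSO and 9.80, 9.67 and 9.95 in OTX015, a difference of 0.27 (limma adjusted p = 0.192, 95% interval −0.01 to 0.55). The first DMSO array of SUDHL6 lay below the other 5 arrays of that pair of groups. The difference was 0.62 and 0.21 on the 2 slides that held both arms, and it passed with the slide as a block (0.35, limma adjusted p = 0.0429). Without that first DMSO array it was 0.06 (limma adjusted p = 0.855). The other probe, ILMN_1756806, went lower with OTX015 in SUDHL6 at 2 h, at 8.03, 7.93 and 7.76 against 8.51, 8.52 and 8.18, without passing (−0.49, limma adjusted p = 0.113).

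BCL2L2 rose in SUDHL6. Its probe read 6.10, 6.18 and 6.03 untreated, 5.39, 5.95 and 5.55 in DMSO at 12 h, and 6.47, 6.64 and 6.34 in OTX015 at 12 h. The OTX015 arrays were above all DMSO and all untreated arrays. The difference from DMSO was 0.85 ± 0.15 (1.81-fold, limma adjusted p = 2.06e-05); it was 1.16 and 0.60 on the 2 slides that held both arms, and 0.42 without background correction or on the authors' deposited log2 values, where it still passed. DMSO had fallen below untreated by 0.47 ± 0.15 at 12 h (limma adjusted p = 0.027), a call that ended in 10 of 21 alternatives. The mean was 6.48 with OTX015, 6.10 untreated and 5.63 with DMSO.

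At 2 h the BCL2L2 arrays of SUDHL6 read 4.90, 5.44 and 5.63 in DMSO and 5.69, 5.81 and 5.69 in OTX015. The difference of 0.41 ± 0.15 did not pass (limma adjusted p = 0.127), but did with the replicate block (0.41, limma adjusted p = 0.0435) and without DMSO replicate 3 (0.56). It was 0.20 without DMSO replicate 1, the lowest array, and 0.85 and 0.16 on the 2 slides that held both arms. The 12 h response exceeded that at 1 h by 0.80 ± 0.21 (limma adjusted p = 0.00774). In SUDHL2 the gene did not pass at any hour, with 7.14, 7.11 and 7.10 in DMSO and 7.20, 7.30 and 7.11 in OTX015 at 12 h (0.09, limma adjusted p = 0.749, 95% interval −0.21 to 0.38). BCL2L2 overlaps the read-through locus BCL2L2-PABPN1 on chromosome 14, and its single probe cannot be said here to exclude that transcript.

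The differences between lines in the response were tested directly. At 12 h, 2 of the 10 probes responded more positively in SUDHL6 and 1 more negatively, against 7.99% of all probes called in either direction. BCL2A1 differed by 1.75 ± 0.28 (limma adjusted p = 2.5e-05). Its DMSO mean in SUDHL6 was 5.53 with 1 of 3 arrays not above background, so a fall of the size seen in SUDHL2 could not have been measured there. The responses also differed for BCL2L2 by 0.77 ± 0.21 (limma adjusted p = 0.0136) and BCL2L1 by −0.74 ± 0.18 (limma adjusted p = 0.00453). At 2 h only BCL2L1 differed, by −1.02 ± 0.18 (limma adjusted p = 0.00108), beside 0.419% of all probes. At 1 h 0 of 10 passed by limma, 0 at an unadjusted p under 0.05, and 0.0423% of all probes did. The alpha probes of BCL2 did not pass at 12 h, at 0.06 (ILMN_2246956, limma adjusted p = 0.93) and 0.52 (ILMN_1801119, limma adjusted p = 0.184). In SUDHL6 they were above background on 1 and 0 of 3 DMSO arrays at 12 h, so a fall there could hardly be measured. Averaging the BCL2L1 probes ended its calls (−0.72 at 2 h and −0.48 at 12 h), and leaving out DMSO replicate 1 of SUDHL6 ended that of BCL2L2 (0.65, limma adjusted p = 0.0601). Between 12 and 1 h, 2 of 10 probes changed their response in SUDHL2 (16.3% of all probes) and 2 in SUDHL6 (9.64%), those given above.

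The vehicle arm is a control that itself differed from the untreated arrays. The labels give those arrays no hour, and each line has 1 untreated group for all hours. The vehicle and the time or handling since the start therefore cannot be told apart. Against untreated arrays, 5 of the 10 probes rose and 1 fell in SUDHL6 with DMSO at 2 h, when 8.00% of all probes passed. They were BCL2A1, BCL2L1, the beta probe of BCL2 and both MCL1 probes among the rises, and BCL2L2 as the fall (−0.78 ± 0.15, limma adjusted p = 0.000212). On both slides that held the 2 groups each of these 6 differences kept its sign. The other counts in SUDHL6 were 1 rise at 1 h (1.36% of all probes) and 1 fall at 12 h (11.6%).

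MCL1 rose in DMSO against untreated arrays in both lines. In SUDHL6 ILMN_1803988 read 9.61, 9.65 and 9.71 untreated and 10.17, 10.35 and 10.13 with DMSO at 2 h, a rise of 0.56 ± 0.14 (limma adjusted p = 0.0056). ILMN_1756806 rose by 1.07 ± 0.17 (limma adjusted p = 1.97e-05). In SUDHL2 the rise came at 12 h, from 8.81, 8.84 and 8.88 untreated to 9.37, 9.23 and 9.34 (0.47 ± 0.14, limma adjusted p = 0.0146), and on the other probe it was 0.79 ± 0.17 (limma adjusted p = 0.000668). These were 0.44 and 0.73 on the 1 slide that held both groups, and the first call ended without untreated replicate 1 or DMSO replicate 1. ILMN_1756806 was also the rise at 2 h, by 0.54 (limma adjusted p = 0.0375), a call that ended in 5 of 18 alternatives. In that line 0 of 10 probes passed by limma at 1 h (4.40% of all probes; 1 unadjusted), 1 rose and 2 fell at 2 h (10.1%), and 2 rose and 1 fell at 12 h (16.3%), the fall being BCL2L2 by 0.46 ± 0.15 (limma adjusted p = 0.023, ended in 4 of 20 alternatives). The comparisons of a line with its untreated arrays share those arrays.

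**Figure D3:**
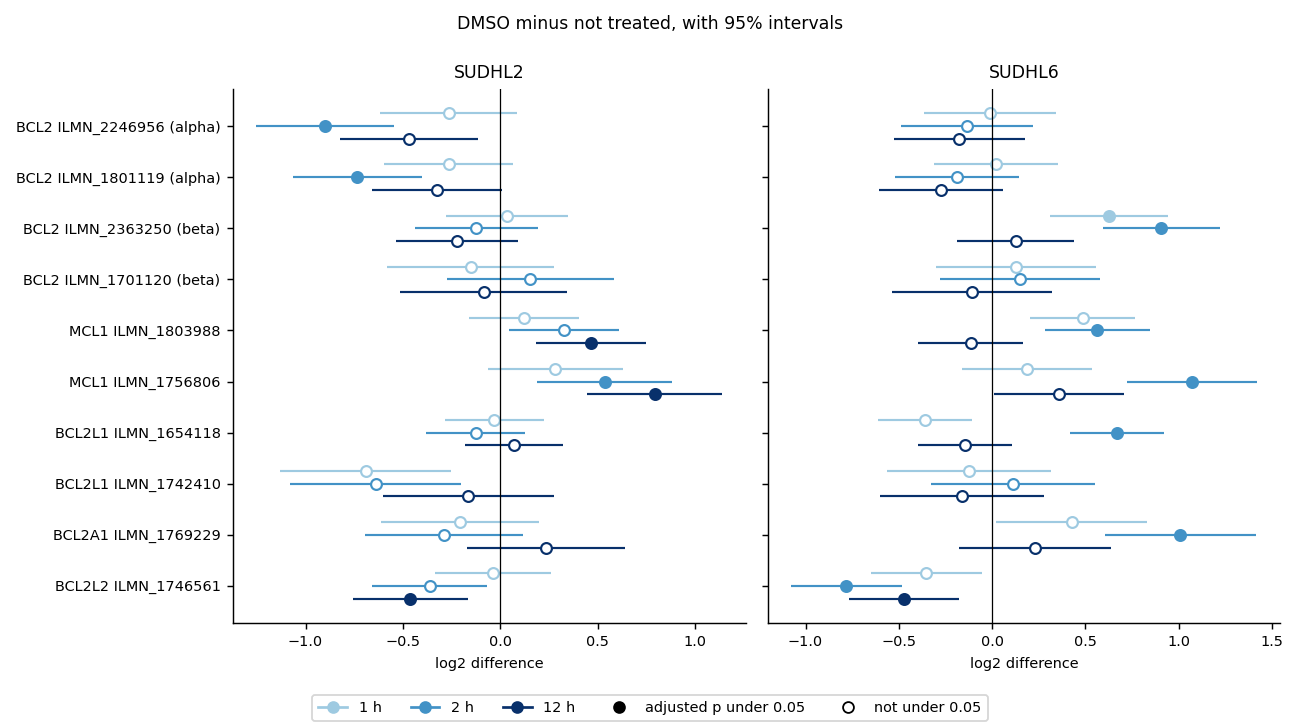
DMSO minus untreated as a log2 difference (horizontal axis) for the 10 probes in each line, with 95% intervals of the limma fit; filled points passed an adjusted p of 0.05. In SUDHL6 at 2 h, 5 filled points lie to the right of 0 and that of BCL2L2 to the left, and MCL1 rises in both lines.

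Untreated, the 2 lines held the members at different levels. Of the 10 probes, 5 were higher in SUDHL2 and 3 in SUDHL6, against 44.7% of all probes called in either direction. SUDHL2 exceeded SUDHL6 in BCL2A1 by 3.44 ± 0.20 (limma adjusted p = 1.09e-18), where 1 of 3 SUDHL6 arrays was above background. It did so on ILMN_2246956 of BCL2 by 3.12 ± 0.18 (limma adjusted p = 3.11e-19), where 2 of 3 were, and in BCL2L2 by 1.47 ± 0.15 (limma adjusted p = 1.72e-11). These calls held in all 20 alternatives, but their sizes varied. They ran from 2.08 to 3.57 for BCL2A1, 1.25 to 3.34 for ILMN_2246956 and 0.85 to 1.53 for BCL2L2. SUDHL6 exceeded SUDHL2 in MCL1, where ILMN_1803988 read 9.61, 9.65 and 9.71 against 8.81, 8.84 and 8.88 (−0.81 ± 0.14, limma adjusted p = 4.07e-06), and on the beta probe ILMN_2363250 of BCL2 (−0.72 ± 0.16, limma adjusted p = 0.000157). The alpha probes and ILMN_2363250 of BCL2 thus differed in opposite directions. The other beta probe, ILMN_1701120, did not pass (−0.20, limma adjusted p = 0.485), and was above background on 0 SUDHL2 and 1 SUDHL6 array. The transcript of each probe is that of the array annotation and was not checked by sequence. On the 1 slide that held an untreated array of each line, the differences were 3.51 for BCL2A1, 3.48 for ILMN_2246956, 1.71 for BCL2L2, −0.89 for ILMN_1803988 and −0.51 for ILMN_2363250. The call of the other MCL1 probe, ILMN_1756806, ended in 12 of 18 alternatives. Among the brightest probes of the 5 genes BCL2L1 differed least, by 0.31 ± 0.13 (limma adjusted p = 0.0396), a call that ended in 8 of 20 alternatives.

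Ordered by mean level over the 7 groups of a line, most neighbouring groups overlapped. For BCL2L1 in SUDHL6, DMSO at 2 h stood apart at the top, followed by the untreated group, and OTX015 at 12 h stood apart at the bottom, with the 4 groups between them overlapping their neighbours. For BCL2A1 in SUDHL2, 5 of 6 neighbouring pairs overlapped and OTX015 at 12 h stood apart at the bottom. BCL2 ILMN_2246956 was ordered most clearly in SUDHL2, where untreated arrays were highest and 2 of 6 neighbouring pairs overlapped, and not at all in SUDHL6, where all 6 did.

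Over the 22 untreated panel lines, the alpha probes of BCL2 varied more than any probe of another member. ILMN_2246956 ran from 4.57 in OCI-Ly2 through a median of 8.26 to 12.38 in RIVA, a range of 7.81. OCI-Ly2 and OCI-Ly1 were not above background, and the range was 5.89 without background correction. The SD over lines was 2.57, larger than for 99.9% of the detected probes. Its sister probe ILMN_1801119 followed it, with a Pearson r of 0.996 and a Spearman rho of 0.997 over the 22 lines. Of 21 neighbouring pairs of lines in the order of ILMN_2246956, 10 differed by less than the replicate SD of 0.226 from the time course. No line in the panel has a replicate, so no test was made.

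The beta probe of BCL2 did not follow the alpha probes in every line. RIVA and U-2932 were among the highest 3 lines on both ILMN_2246956 and ILMN_2363250. OCI-Ly2, the lowest of 22 lines on the alpha probe, was rank 2 on the beta probe, at 8.35, and OCI-Ly1, at rank 21, was rank 6, at 7.13. OCI-Ly19 ran the other way, with rank 6 on alpha (10.45) and rank 18 on beta (5.51). Pearson r between these probes was 0.317 and Spearman rho 0.294 over the 22 lines, whose arrays share their slides and normalisation.

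**Figure D4:**
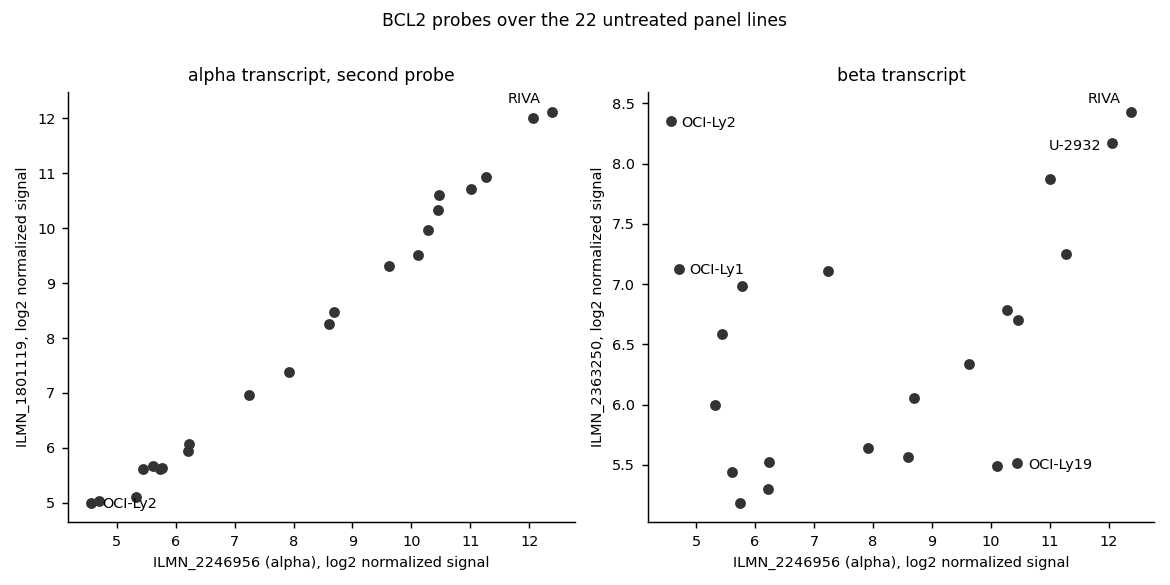
Log2 normalised signal of BCL2 probes over the 22 panel lines, 1 point per line: the 2 alpha probes against each other (left) and the beta probe ILMN_2363250 against ILMN_2246956 (right). The alpha probes lie on a line, whereas OCI-Ly2 and OCI-Ly1 are low on alpha and high on beta and OCI-Ly19 is the reverse.

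The other members had narrower ranges over the panel than the alpha probes of BCL2. So had its beta probes, ILMN_2363250 at 3.25 and ILMN_1701120 at 2.24. MCL1 (ILMN_1803988) ran from 8.11 in OCI-Ly8 through 9.21 to 11.97 in U-2932, which stood 0.96 above the next line, Karpas-422. BCL2L1 (ILMN_1654118) ran from 8.14 in SU-DHL-7 through 9.32 to 11.92 in RCK8, 1.64 above the next line, OCI-Ly7. RCK8 also led on the second BCL2L1 probe, at 8.76, with a gap of 2.12.

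BCL2A1 split the panel at its widest gap, 1.14. U-2932 (7.98), OCI-Ly10 (7.73), SU-DHL-2 (7.66), TMD8 (7.48), OCI-Ly3 (7.27) and RCK8 (7.26) lay above it, and VAL (6.11) led the other 16 lines, whose lowest was OCI-Ly19 at 5.03. The probe was above background in 16 of 22 lines. BCL2L2 ran from 5.19 in SU-DHL-10 through 7.07 to 8.72 in Karpas-422 and was spread without a gap above 0.35. Without the Karpas-422 array SU-DHL-7 led, at 8.43. U-2932 was among the highest 3 lines on BCL2, MCL1, BCL2L1 and BCL2A1 and was rank 17 on BCL2L2, at 5.90. The labels give no lymphoma subtype for the lines.

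**Figure D5:**
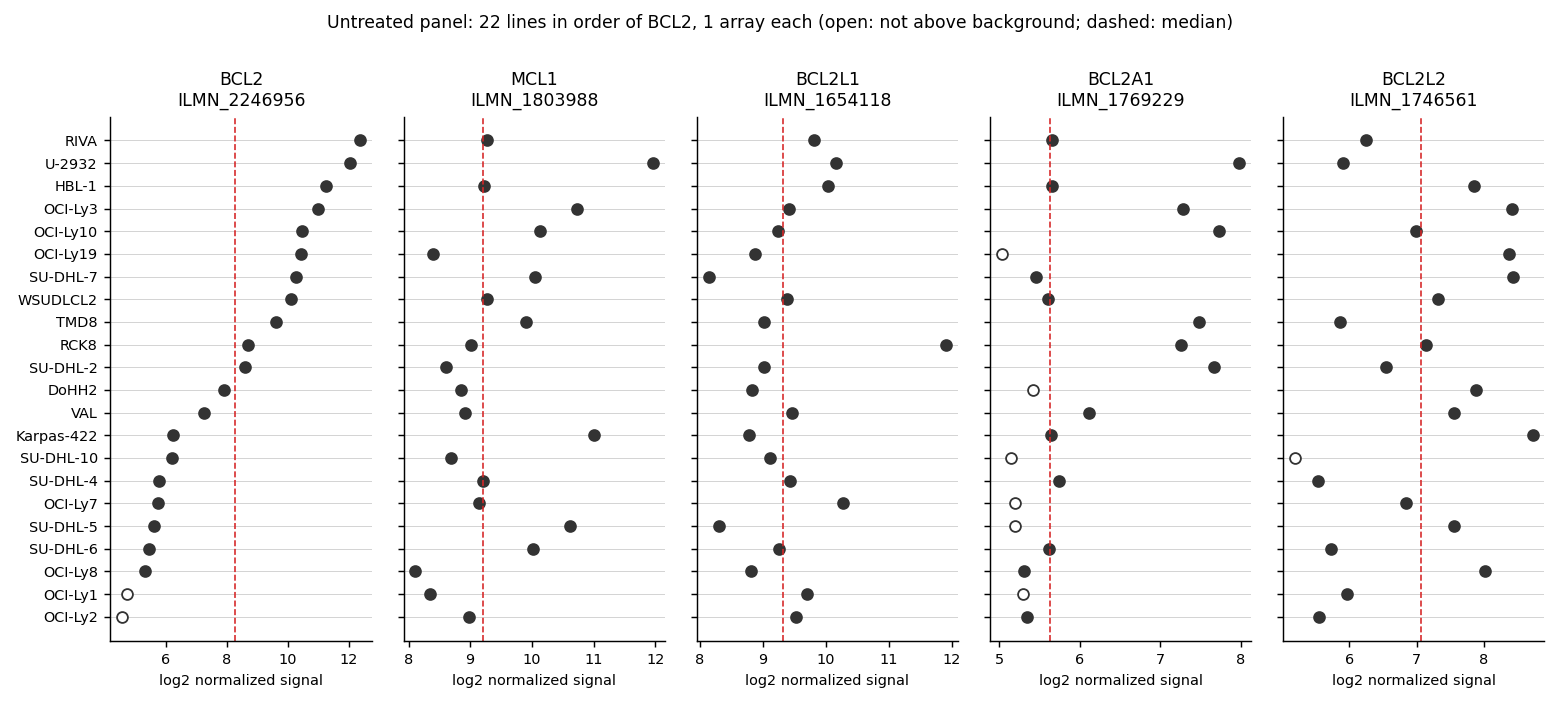
Log2 normalised signal (horizontal axes) of the brightest probe of each gene in the 22 untreated panel lines, ordered by BCL2, 1 array per line; open points were not above background and the dashed line is the median. BCL2 spans 4.57 to 12.38, RCK8 stands apart on BCL2L1, and 6 lines lie to the right of a gap on BCL2A1.

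The panel arrays of the 2 treated lines can be set beside their untreated time-course arrays. Panel SU-DHL-6 correlated best with untreated SUDHL6 (0.98) and panel SU-DHL-2 with untreated SUDHL2 (0.976). On BCL2 ILMN_2246956 the panel array differed from the untreated mean by 0.03 in SU-DHL-2 and by −0.01 in SU-DHL-6. For SU-DHL-2, however, BCL2A1 was 1.07 lower in the panel (7.66 against 8.74) and BCL2L2 1.04 lower (6.54 against 7.58), both outside the range of the 3 untreated arrays.

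For likeness, the 3 genes with the highest Pearson r to the brightest probe of each member are named as a description, each with r and then Spearman rho. Over the 14 group means of the time course, BCL2A1 was most like SH3TC1 (0.992, 0.96), TPRG1 (0.989, 0.903) and GPR183 (0.987, 0.965). BCL2 was most like MAP3K20 (0.995, 0.934), SAMD9L (0.993, 0.965) and SLA (0.992, 0.846). BCL2L2 was most like NDUFB5 (0.987, 0.943), TNFAIP1 (0.987, 0.912) and EEF2K (0.984, 0.956). These values share the difference between the lines: 1446 genes correlated above 0.9 with BCL2, 993 with BCL2A1 and 1121 with BCL2L2. MCL1 was most like LHFPL6 (0.964, 0.925), SMDT1 (0.959, 0.965) and ADIPOR2 (0.954, 0.96). For BCL2L1, whose lines lay closer together, they were PRKCQ (0.892, 0.815), GCNT2 (0.879, 0.868) and CD40 (0.875, 0.684).

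Over the 22 panel lines different genes came closest. For BCL2 they were PLXNA1 (0.806, 0.804), TBCK (0.735, 0.7) and CD44 (0.73, 0.657), and for MCL1 CYSTM1 (0.738, 0.727), PIAS3 (0.721, 0.561) and RRAS (0.72, 0.715). For BCL2L1 they were OTULINL (0.805, 0.653), ZNF341 (0.783, 0.625) and ASB16 (0.77, 0.647). For BCL2A1 they were TTLL7 (0.894, 0.552), which was above background in 5 lines, PARM1 (0.879, 0.832) and SGPP2 (0.836, 0.764). For BCL2L2 they were ZNF627 (0.776, 0.774), ADD1 (0.728, 0.737) and KIF27 (0.688, 0.713).

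The pro-apoptotic relatives, whose BH3 segments the members bind, moved in both directions. Of 13 genes, all measured and taken by 1 probe each, 2 rose and 3 fell in SUDHL2 at 12 h. Of all probes 25.6% were called, or 34.1% with 1 probe per gene. BCL2L11, which encodes BIM, fell by 1.42 ± 0.19 (limma adjusted p = 1.8e-07), BMF by 1.10 ± 0.16 (limma adjusted p = 8.62e-07) and BID by 0.98 ± 0.13 (limma adjusted p = 1.03e-07). In SUDHL6 at 12 h 2 rose and 2 fell, beside 19.3% of all probes, or 26.9% with 1 probe per gene. They were led by HRK, a BH3-only gene, at 1.30 ± 0.24 (limma adjusted p = 5.31e-05), BID at −0.52 ± 0.13 (limma adjusted p = 0.00248) and BCL2L13 at 0.38 ± 0.13 (limma adjusted p = 0.0399). PMAIP1, which encodes NOXA, a binder of MCL1 and BFL-1, was the 1 gene called in SUDHL6 at 2 h, at 0.67 ± 0.17 (limma adjusted p = 0.0123). At that hour 3.91% of all probes were called, or 6% with 1 probe per gene. The list's median was −0.09 in SUDHL2 and −0.13 in SUDHL6 at 12 h, near 0 like that of all probes (0.00 and 0.01). By limma 0 of 13 passed in SUDHL2 at 1 h (0 unadjusted), in SUDHL2 at 2 h (0 unadjusted) and in SUDHL6 at 1 h (1 unadjusted). With 1 probe per gene, 0.187%, 3.29% and 0.821% of all probes were called in these contrasts.

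Of 9 measured genes of mitochondrial death and its inhibitors, 3 rose and 1 fell in SUDHL2 at 12 h. Of all probes 25.6% were called, or 34.1% with 1 probe per gene. CASP9, the initiator caspase, rose by 0.97 ± 0.11 (limma adjusted p = 6.28e-09), BIRC5, the survivin gene, rose by 0.75 ± 0.18 (limma adjusted p = 0.00128), and HTRA2 fell by 0.40 ± 0.13 (limma adjusted p = 0.0167). In SUDHL6 at 12 h, beside 19.3% of all probes, or 26.9% with 1 probe per gene, 2 rose. They were APAF1 by 0.53 ± 0.18 (limma adjusted p = 0.0277) and CASP9 by 0.43 ± 0.11 (limma adjusted p = 0.00516). The list's median was 0.19 in SUDHL2 and 0.16 in SUDHL6 at 12 h. By limma 0 of 9 passed in SUDHL2 at 1 h (0 unadjusted), SUDHL2 at 2 h (1 unadjusted), SUDHL6 at 1 h (0 unadjusted) and SUDHL6 at 2 h (3 unadjusted). With 1 probe per gene, 0.187%, 3.29%, 0.821% and 6% of all probes were called in these contrasts.

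Among 11 genes described as regulators of these members, MYC, a transcription factor gene known to respond to BET inhibition, fell most in SUDHL2, by 3.48 ± 0.22 at 12 h (limma adjusted p = 3.82e-16). There 3 of 11 fell and 0 rose, beside 25.6% of all probes called, or 34.1% with 1 probe per gene. Also lower were STAT3, a cytokine-activated transcription factor, at −1.66 ± 0.19 (limma adjusted p = 3.85e-09) and BCL6, a transcriptional repressor active in germinal centre B cells, at −1.56 ± 0.18 (limma adjusted p = 4.85e-09). At 2 h in that line MYC (−1.74 ± 0.22, limma adjusted p = 1.11e-06) and BCL6 (−1.42 ± 0.18, limma adjusted p = 1.28e-06) were the 2 called of 11, both lower. Of all probes 2.02% were called there, or 3.29% with 1 probe per gene. In SUDHL6 MYC alone of the 11 was called at 1 h, at −1.35 ± 0.22 (limma adjusted p = 0.000366). At that hour 0.557% of all probes were called, or 0.821% with 1 probe per gene. At 2 h 4 of 11 fell in SUDHL6, beside 3.91% of all probes, or 6% with 1 probe per gene. They were led by MYC (−1.22 ± 0.22, limma adjusted p = 0.000238), BCL6 (−1.0 ± 0.18, limma adjusted p = 0.000252) and the NF-kB subunit REL (−0.95 ± 0.17, limma adjusted p = 0.000202). At 12 h in SUDHL6 3 rose and 1 fell, beside 19.3% of all probes, or 26.9% with 1 probe per gene. STAT3 was higher by 0.87 ± 0.19 (limma adjusted p = 0.000644), with the NF-kB gene NFKB2 at −0.57 ± 0.16 (limma adjusted p = 0.00996) and FBXW7, whose ubiquitin ligase acts on MCL1 protein, at 0.47 ± 0.14 (limma adjusted p = 0.0124). In SUDHL2 at 1 h 0 of 11 passed by limma, and 1 did at an unadjusted p under 0.05. Of all probes 0.134% were called there, or 0.187% with 1 probe per gene.

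At 12 h in SUDHL2 the summed marker signals did not overlap between OTX015 and DMSO for any list. In SUDHL6 at that hour only those of the B cell list did not overlap. The summed normalised signal of 6 B cell markers was 5371 to 6401 in SUDHL2 with DMSO at 12 h and 7584 to 7896 with OTX015, beside the falls of BCL2A1 and BCL2. In SUDHL6 it was 20215 to 21922 with DMSO and 16647 to 18619 with OTX015 at 12 h, and 21030 to 23059 and 18987 to 20644 at 2 h. The 6 T and NK cell markers summed in SUDHL2 at 12 h to 204.5 to 227 with DMSO and 176.7 to 197.8 with OTX015, and in SUDHL6 to 168.8 to 180.3 and 149.7 to 199.1. CD3E, CD7 and NKG7 were above background on none of the 42 arrays, whereas CD3D was so on 18 and CD2 on 8 of the 21 SUDHL2 arrays. The 4 myeloid markers summed to 163.3 to 186.2 with DMSO and 204.5 to 215.4 with OTX015 in SUDHL2 at 12 h, and to 195.6 to 219.2 and 195.5 to 224.4 in SUDHL6, and CSF1R was above background on none. FCGR3A was above background on all 21 arrays of each line, CD14 on 20 in SUDHL2 and 12 in SUDHL6, and LYZ on 15 and 11. The 6 epithelial and stromal markers summed in SUDHL2 at 12 h to 441.5 to 533.2 with DMSO and 333.2 to 371.1 with OTX015, and in SUDHL6 to 1715 to 1932 and 1863 to 2036. EPCAM was above background on all 21 SUDHL2 arrays and 0 SUDHL6 arrays. VIM was so on all 21 of each line, with means of 7.28 in SUDHL2 and 11.20 in SUDHL6. In SUDHL2 and SUDHL6, COL1A1 was above background on 2 and 4 arrays, COL1A2 on 1 and 0, KRT18 on 1 and 1, and KRT8 on 0 and 0. The part of these shifts in the members' differences was not tested.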

How the data were processed

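RNA from cultured lymphoma lines was extracted with RNeasy columns and labelled with a TotalPrep kit, per the labels' protocols, and hybridised to Illumina single-channel arrays. The authors deposited the non-normalised signal intensity of each probe and a table of processed log2 values. The sources used here do not give the array model or how the processed table was made. The processed log2 columns had a median of 6.64 over the time course and 6.74 over the panel, and 63 of 64 matched their own array's intensity best.

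The intensities were background-corrected by normexp with an offset of 16, quantile normalised and taken to log2 in limma 3.58.1 (R 4.3.3). A probe counted as above background at a p of 0.01 from a background distribution mirrored around its mode, and probes above background on at least 3 of the 42 time-course arrays were tested. Gene symbols came from the platform annotation, where 30113 probes had 1 symbol, 8 several and 17110 none. One limma model with a mean per group and an intensity trend, over all 42 time-course arrays, gave 18 contrasts, each with Benjamini-Hochberg adjustment over all tested probes at 0.05. No linear fold was given where a probe was above background on no array of a group, and the number of arrays limits the precision.

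All probes of the 5 genes are named. The brightest detected probe of a gene stands for it in the order of groups and in the likeness measure, and each pathway list names at most the 3 largest differences that passed. The members and lists were chosen with earlier results of these data known. Same-numbered experiments deviated together in SUDHL6 for OTX015 and DMSO at 2 h (r of 0.166, 0.126 and 0.373) and at 12 h (0.25, 0.211 and 0.352). At both hours the arms of experiment 1 shared a slide, as did those of experiment 3, whereas those of experiment 2 did not. For experiments 1 and 3 a shared experiment and a shared slide cannot be told apart. In no other contrast between 2 groups of a line did every pair exceed 0.1, so the replicate block is printed beside results of those contrasts alone. Alternatives changed the background correction, the normalisation, the filter, the probe summary, the variance trend, the blocks, the arrays entering the fit and each left-out replicate. The model was tested on simulated data.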

Additional observations from a re-analysis of the deposited data

Results flagged for a closer look

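The response to OTX015, taken as OTX015 minus DMSO on the log2 scale, differed between the 2 lines in 4 tests of the difference itself. The SUDHL6 response minus the SUDHL2 response was −1.02 for BCL2L1 at 2 h (limma adjusted p = 0.00108) and −0.74 at 12 h (limma adjusted p = 0.00453). It was 1.75 for BCL2A1 at 12 h (limma adjusted p = 2.5e-05), which lay near background in SUDHL6, and 0.77 for BCL2L2 at 12 h (limma adjusted p = 0.0136). The response also differed between hours within a line. The 12 h response minus the 1 h response in SUDHL2 was −0.68 for BCL2 on ILMN_1801119 (limma adjusted p = 0.0374) and −1.93 for BCL2A1 (limma adjusted p = 2.18e-06). In SUDHL6 it was −0.97 for BCL2L1 (limma adjusted p = 0.000146) and 0.80 for BCL2L2 (limma adjusted p = 0.00774).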

How the results depend on the processing

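Under 15 kinds of alternative and 42 left-out arrays, 3601 of 3736 recomputed differences stayed on their side of the threshold, 85 calls were lost, 50 were gained and 0 reversed; of those that stayed, 146 changed sign without being called either way. The fall of BCL2 on ILMN_2246956 in SUDHL2 at 12 h ended when probes were averaged (−0.24), and left-out arrays gave −0.67 to −0.44. The same probe in SUDHL6 at 12 h ended without background correction (−0.16), with an offset of 50 (−0.24), with 75th percentile scaling (−0.47), on the authors' deposited log2 values (−0.13), with probes averaged (−0.21), without experiment 3 (−0.35), and with no filter, no intensity trend or the line's own arrays (−0.48 each); left-out arrays gave −0.58 to −0.38. BCL2A1 in SUDHL6 at 2 h ended without background correction (−0.33), with an offset of 50 (−0.44), with 75th percentile scaling (−0.65), on the deposited log2 values (−0.32), and with no filter, no trend or own arrays (−0.68 each); left-out arrays gave −0.87 to −0.48. MCL1 in SUDHL6 at 12 h passed only with the slide block (0.35). The BCL2L1 difference between lines ended with probes averaged (−0.72 at 2 h, −0.48 at 12 h). Its untreated difference ended with no filter (0.31), the slide block (0.35) or no experiment 3 (0.31), and ranged over 0.23 to 0.41 with arrays left out. BCL2L2 in SUDHL6 at 2 h passed with the replicate block (0.41), and left-out arrays gave 0.20 to 0.56; its difference between lines at 12 h then ranged over 0.65 to 0.93. Of the members' probes, 2 were called in SUDHL6 at 2 h, 1 with 75th percentile scaling, no filter, no trend or own arrays, 4 with the replicate block, and 1 to 3 with arrays left out. Where the numbers pair the arrays, the block changed no call of a member other than those of BCL2L2 and the beta probe of BCL2 at 2 h. Apart from the filters, which change the probes tested, the cause was not tested.

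The share of all probes called moved most with the filter: in SUDHL2 from 12.8% (no filter) to 43.6% (1.5 times the background mode) at 12 h and from 0.915% to 3.78% at 2 h, and in SUDHL6 from 9.31% to 33.4% at 12 h and from 1.83% to 7.15% at 2 h. Without background correction the panel range of BCL2 on ILMN_2246956 was 5.89 in place of 7.81, and that of BCL2A1 1.68 in place of 2.95. Levels near background, as of BCL2A1 and the BCL2 alpha probes in SUDHL6, limit what differences could be measured.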
